A study of Mus musculus with 6 samples.

Results

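The microRNA (miRNA) miR-21a was measured in inflamed mouse pancreas. The 6 libraries came from mice with excess blood triglycerides (3 libraries) and from control mice (3 libraries). Its members were taken by name: the 2 mature strands of its hairpin, mmu-miR-21a-5p and mmu-miR-21a-3p (mmu stands for mouse and is left out below), which made up 2 of the 1077 mature miRNAs in the deposited table. The group with excess triglycerides is titled HTG_AP, libraries 1 to 3, and the group with the condition control is titled CON_AP, libraries 1 to 3. Both groups had pancreatitis, so no uninflamed pancreas entered any comparison. Strain, sex, age, how the excess triglycerides and the pancreatitis were brought about, and the time of sampling are not stated in the labels. Nor is it stated whether a library stands for 1 animal, so the p-values refer to the spread between libraries, part of which may be technical.

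A miRNA is cut from a hairpin-shaped precursor by the enzymes Drosha and Dicer. One strand of the resulting duplex, the guide, is loaded into an Argonaute protein and represses messenger RNAs that pair with its seed, the bases near its 5′ end, while the other strand, the passenger, is mostly degraded. For miR-21 the guide is the 5p strand. It is transcribed in response to the transcription factors STAT3 and AP-1, is raised in many injured, inflamed and malignant tissues, the pancreas among them, and is known to repress Pdcd4 and Spry1, which restrain growth signalling. In fibrotic tissue, miR-21 is known from activated fibroblasts and macrophages as well as from epithelial cells.

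The sequences of both strands are shown with those of the 2 paralog rows in the table, miR-21c and miR-21b, because reads from these could be confused with miR-21a-5p. They are RefSeq entries on the build GRCm38.p6, written 5′ to 3′ with the seed, bases 2 to 8, in capitals.
miR-21a-5p: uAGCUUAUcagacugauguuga
miR-21c: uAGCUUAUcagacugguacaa
miR-21b: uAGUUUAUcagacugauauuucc
miR-21a-3p: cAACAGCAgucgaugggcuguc
The seed of miR-21a-5p was shared by 1 other row of the table, miR-21c, and that of miR-21a-3p by none, among the 901 rows of the table that matched a RefSeq mature sequence by name. Counted from 1 at the 5′ end of miR-21a-5p, miR-21c has the same first 15 bases and then differs by A16G, G18A, U19C, U20A and G21A. For miR-21b the first difference, C4U, falls in the seed, and G18A, G21U and A22C follow.

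These paralogs were barely counted. miR-21c had 4, 9 and 1 counts in HTG_AP libraries 1, 2 and 3 and 0, 2 and 1 counts in CON_AP libraries 1, 2 and 3, and miR-21b had 6, 3 and 3 counts against 1, 7 and 2. A count of 0 in CON_AP1 allows up to 0.334 CPM (counts per 1e6 counts of the library) if 3 counts are taken as the limit, which covers counting error only. The rows closest in sequence to miR-21a-5p were miR-3965 and miR-3967, each at 4 single-base edits (substitutions, insertions or deletions), with 3 and 7 counts over all 6 libraries. In none of these rows did a library hold more than 9 counts, against 753855 or more for miR-21a-5p.

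The hairpin gene Mir21a lies on chromosome 11 of GRCm38 from 86584067 to 86584158 on the - strand. By the GENCODE gene models it sits within the last exon, exon 12, of Vmp1-201, a coding transcript of the autophagy gene Vmp1 on the same strand (exon from 86583865 to 86585451), in the part annotated as UTR. The 5p strand spans 86584120 to 86584141 and the 3p strand 86584082 to 86584103. In the 92-base hairpin the strands are 16 bases apart. RNAfold gave it a minimum free energy of -46.2 kcal/mol and paired 19 of the 22 bases of miR-21a-5p with miR-21a-3p.

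The libraries held between 6514498 and 19773579 counts. The acinar marker miR-148a-3p, the most abundant miRNA, was at 298082 to 492049 CPM in HTG_AP and 281634 to 413975 CPM in CON_AP libraries, and all 8 markers of acinar cells, which make the digestive enzymes, were present in each library. HTG_AP1 was the highest of its group in each of the 10 tested leukocyte miRNAs, and CON_AP1 was the highest of its group in some of them but not in all. The lymphocyte miRNA miR-150-5p was at 1726, 46.7 and 46.2 CPM in HTG_AP libraries 1, 2 and 3, and at 797, 66.2 and 103 CPM in CON_AP libraries 1, 2 and 3. In CON_AP1 the leukocyte miRNAs miR-223-3p, miR-146b-5p and miR-146a-5p were the lowest of the group instead, the last 2 named after their values were seen. Results that rest on these libraries are given with and without them.

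miR-21a-5p was the second most abundant miRNA in each of the 6 libraries, and the difference between the groups was smaller than the spread between libraries. Its counts were 753855, 1971831 and 923468 in HTG_AP libraries 1, 2 and 3, and 827314, 1229693 and 2546281 in CON_AP libraries 1, 2 and 3. After scaling by library size and by the trimmed mean of M-values (TMM), which corrects for differences in composition, this came to 97322, 121528 and 99281 CPM in HTG_AP and to 94009, 141793 and 116323 CPM in CON_AP libraries. The highest and the lowest library were both CON_AP libraries, numbers 2 and 1, and all 3 HTG_AP libraries fell between them.

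The means of miR-21a-5p were 106044 ± 13446 CPM in HTG_AP and 117375 ± 23909 CPM in CON_AP pancreas (SD, n = 3 each). The fitted log2 fold change was -0.15 ± 0.18 (SE). The quasi-likelihood test of edgeR gave an adjusted p of 0.996 (0.445 unadjusted). The 95% interval of the fold ran from 0.673 to 1.21, on both sides of no change. In the same test 0 of 488 miRNAs passed an adjusted p of 0.05, or 0%, and 12, or 2.46%, had an unadjusted p under 0.05, which became 27 when libraries of the same number were paired. DESeq2 also called 0, with 19 unadjusted. Without CON_AP2 the log2 fold change of miR-21a-5p was 0.0087, of the opposite sign, and without both libraries numbered 1 it was -0.14 (adjusted p = 0.775 in edgeR).

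The passenger strand was rare by comparison: miR-21a-3p was counted 275, 787 and 366 times in HTG_AP libraries 1, 2 and 3, and 382, 404 and 525 times in CON_AP libraries 1, 2 and 3. Its level was 35.5, 48.5 and 39.3 CPM in HTG_AP and 43.4, 46.6 and 24.0 CPM in CON_AP libraries. CON_AP3, the most deeply sequenced library, lay below the other 5, and the groups overlapped. The rank of miR-21a-3p among the miRNAs of a library was 206, 184 and 196 in HTG_AP, and 194, 187 and 231 in CON_AP libraries.

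The means of miR-21a-3p were 41.1 ± 6.68 CPM in HTG_AP and 38.0 ± 12.2 CPM in CON_AP pancreas (SD, n = 3 each). The log2 fold change was 0.12 ± 0.28 (SE), with a 95% interval of the fold from 0.691 to 1.71 and an adjusted p of 0.996 in edgeR. Its sign rested on single libraries: the log2 value was -0.13 without CON_AP3 and -0.042 without HTG_AP2. Without both libraries numbered 1 it was 0.42 (adjusted p = 0.592 in edgeR).

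**Figure D1:**
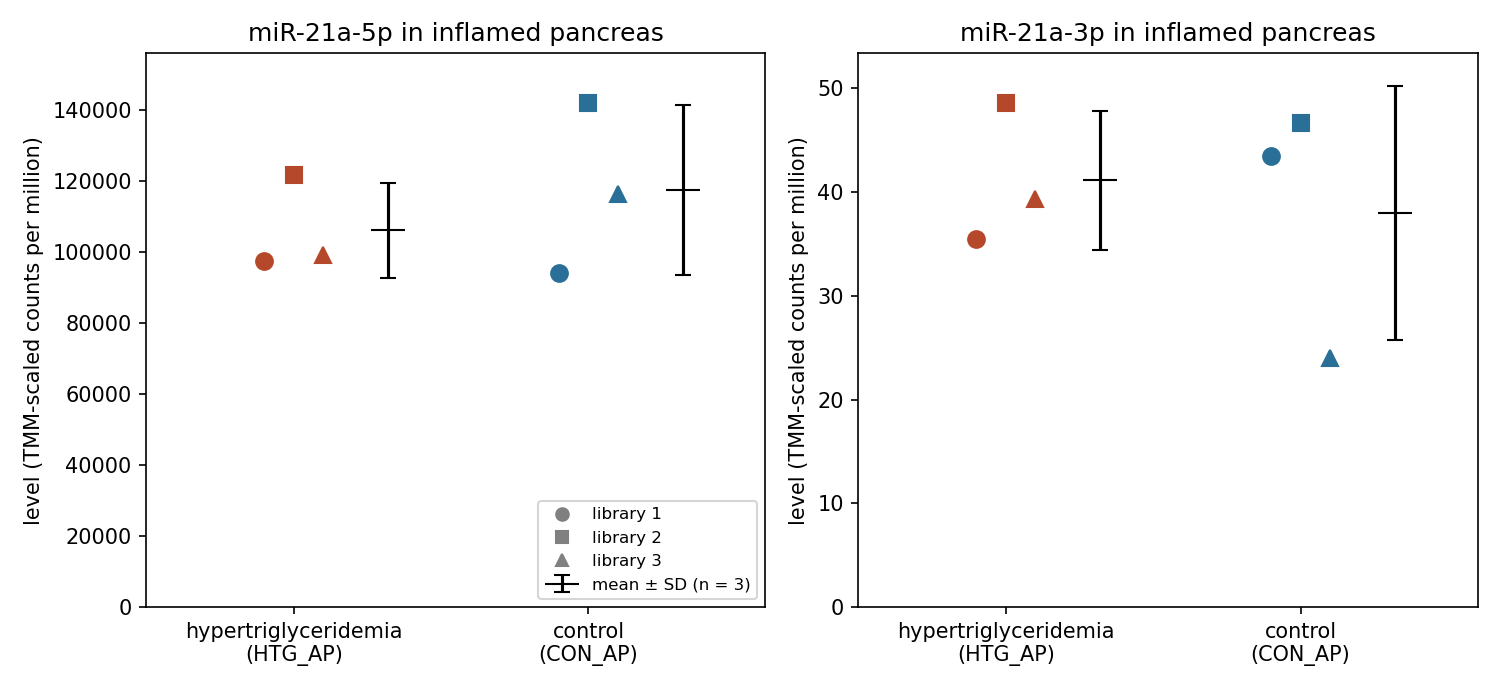
Level of miR-21a-5p (left) and miR-21a-3p (right) in each library, in TMM-scaled CPM on axes that start at 0, with markers for libraries 1 to 3 and the mean ± SD of each group (n = 3) as a bar. The 3 HTG_AP libraries lie between 97322 and 121528 for miR-21a-5p, inside the CON_AP range of 94009 to 141793, and CON_AP3 is the lowest point for miR-21a-3p at 24.0.

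Counting error was a small part of the spread for the guide. The coefficient of variation of miR-21a-5p was 12.7% among HTG_AP and 20.4% among CON_AP libraries, where the counts alone would give 0.0986% and 0.0897%. For miR-21a-3p it was 16.2% and 32.2%, against 5.05% and 4.83% from counting. Reads copied by PCR are not independent molecules, so these counting errors are lower limits. The standard deviation within groups of miR-21a-5p on the log2 scale was 0.24, near the median of 0.23 over the 153 miRNAs of at least 100 CPM. For miR-21a-3p it was 0.41, above the median of 0.28 over the 299 miRNAs of at least 10 CPM, of which 69 varied more.

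As a share of all reads, miR-21a-5p took 11.6%, 10.7% and 8.98% of HTG_AP libraries 1, 2 and 3, and 9.20%, 13.8% and 12.9% of CON_AP libraries 1, 2 and 3. At this depth counting error was small, with a Wilson 95% interval of 11.55% to 11.60% in HTG_AP1, the shallowest library. The group means were 10.4% ± 1.32 and 12.0% ± 2.43 (SD, n = 3 each), a difference of -1.53 percentage points (exact two-sided permutation p = 0.4, where 3 against 3 libraries cannot go below 0.1). Without both libraries numbered 1 the difference was -3.48 percentage points (exact permutation p = 0.333, the smallest that 2 against 2 libraries allow). The order of the HTG_AP libraries depended on the scaling. By share, HTG_AP1 was the highest of its group, and by TMM-scaled level the lowest, since its TMM factor of 1.19 was the largest of the 6. In the authors' deposited TPM, which scale to a library total alone, miR-21a-5p stood at 118019, 109106 and 91485 in HTG_AP and at 93640, 140477 and 131107 in CON_AP libraries.

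A ratio of miRNAs within a library needs no such scaling. For each read of the acinar miR-148a-3p there were 0.326, 0.247 and 0.209 reads of miR-21a-5p in HTG_AP libraries 1, 2 and 3, and 0.227, 0.362 and 0.413 in CON_AP libraries 1, 2 and 3. The groups overlapped, since CON_AP1 lay among the HTG_AP libraries and HTG_AP1 among the CON_AP libraries. The mean log2 ratio was -1.96 ± 0.33 in HTG_AP and -1.63 ± 0.45 in CON_AP pancreas (SD, n = 3 each), a difference of -0.34 (exact permutation p = 0.3). This difference takes in the base too: the fitted log2 fold change was 0.22 ± 0.23 (SE) for miR-148a-3p and -0.15 ± 0.18 for miR-21a-5p. Between libraries of the same number, HTG_AP minus CON_AP, the log2 ratio differed by 0.52 for number 1, -0.55 for number 2 and -0.98 for number 3. Without both libraries numbered 1, the log2 difference was -0.77 (exact permutation p = 0.333).

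The preference for the 5p strand was large in both groups. Per read of miR-21a-3p there were 2741, 2506 and 2523 reads of miR-21a-5p in HTG_AP libraries 1, 2 and 3, and 2166, 3044 and 4850 in CON_AP libraries 1, 2 and 3. The HTG_AP libraries lay close together, while the CON_AP libraries spread to both sides of them. On the log2 scale the means were 11.34 ± 0.07 in HTG_AP and 11.63 ± 0.58 in CON_AP pancreas (SD, n = 3 each), a difference of -0.29 (exact permutation p = 0.6). Without CON_AP3 it was 0.011 (exact permutation p = 1), and without both libraries numbered 1 it was -0.61 (exact permutation p = 0.333). Between libraries of the same number, HTG_AP minus CON_AP, the difference was 0.34 for number 1, -0.28 for number 2 and -0.94 for number 3, so the direction was not the same in all 3.

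Among the 151 hairpins with both strands tested, miR-21a had the fifth most uneven strands, with a mean log2 ratio of 11.48 against a median of 3.69 in either direction. The hairpins above it, named after their values were seen, were miR-101a (12.88, in favour of 3p), let-7g (12.86, in favour of 5p), miR-200c (12.16) and miR-23b (11.87), the last both in favour of 3p. Hairpins with an untested strand, or with strands of unlike names, were left out, so the rank holds among the 151 only. That left out miR-375, whose 3p strand was at a mean of 38050 CPM and whose 5p strand was not tested. miR-21a-3p was rare relative to its partner, although at a mean of 39.6 CPM it ranked 198 of 488 miRNAs by mean level. The strand difference between the groups was larger in size than that of miR-21a for 59 of the 151 hairpins. Many of these had a rarer strand of few counts, where counting error is larger, so this number is no even yardstick. The extremes, named after their values were seen, were miR-325 (2.13) and miR-3065 (-1.90). Their rarer strands were at means of 1.37 and 1.59 CPM.

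The deviation of the strand ratio in CON_AP3 was not shared by most hairpins. There the log2 ratio of miR-21a stood 0.76 above its own mean over the 6 libraries, while the median hairpin, taking the higher strand over the lower, stood at -0.036, and 13 of 151 deviated further upwards than miR-21a. In CON_AP1 the value of miR-21a was -0.40 and the median -0.014. What set these libraries apart in strand ratio was not tested.

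**Figure D2:**
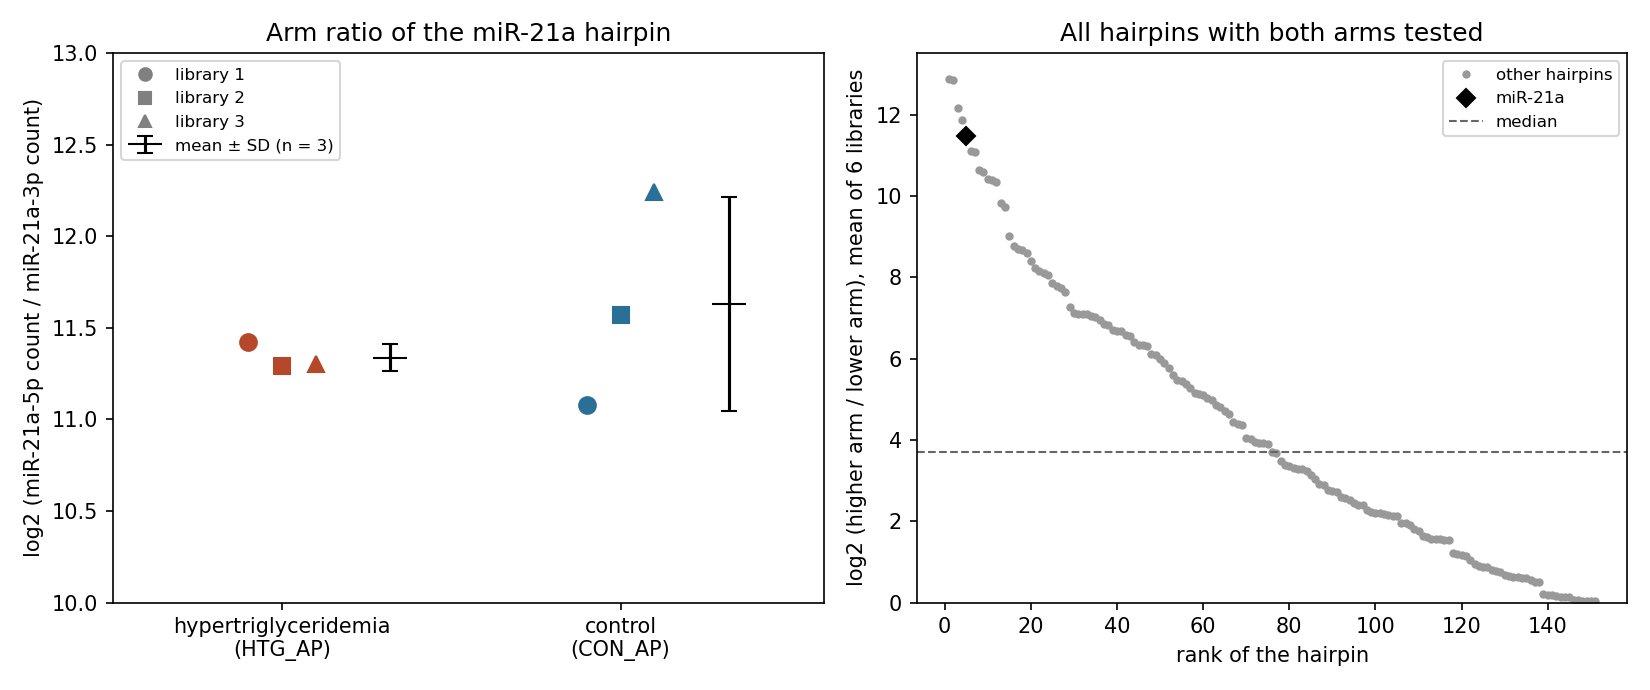
Left, log2 ratio of miR-21a-5p to miR-21a-3p counts in each library, with the mean ± SD of each group (n = 3), on an axis that does not start at 0. Right, the mean log2 ratio of the higher to the lower strand for each of 151 hairpins in order of size, with miR-21a as a diamond at rank 5 and the median of 3.69 as a dashed line. The HTG_AP libraries lie between 11.29 and 11.42, and CON_AP3 is highest at 12.24.

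Only miR-148a-3p exceeded miR-21a-5p in mean level, at 421848 ± 107507 CPM in HTG_AP and 362264 ± 70753 CPM in CON_AP pancreas. The next below was the islet miRNA miR-375-3p, at 38758 ± 5791 and 37342 ± 3343 CPM (SD, n = 3 each), so that miR-21a-5p stood clear of its neighbours in each group by more than their spread. Levels of different miRNAs from ligation-based libraries also carry each sequence's ligation efficiency, and this order describes reads and not molecules.

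**Figure D3:**
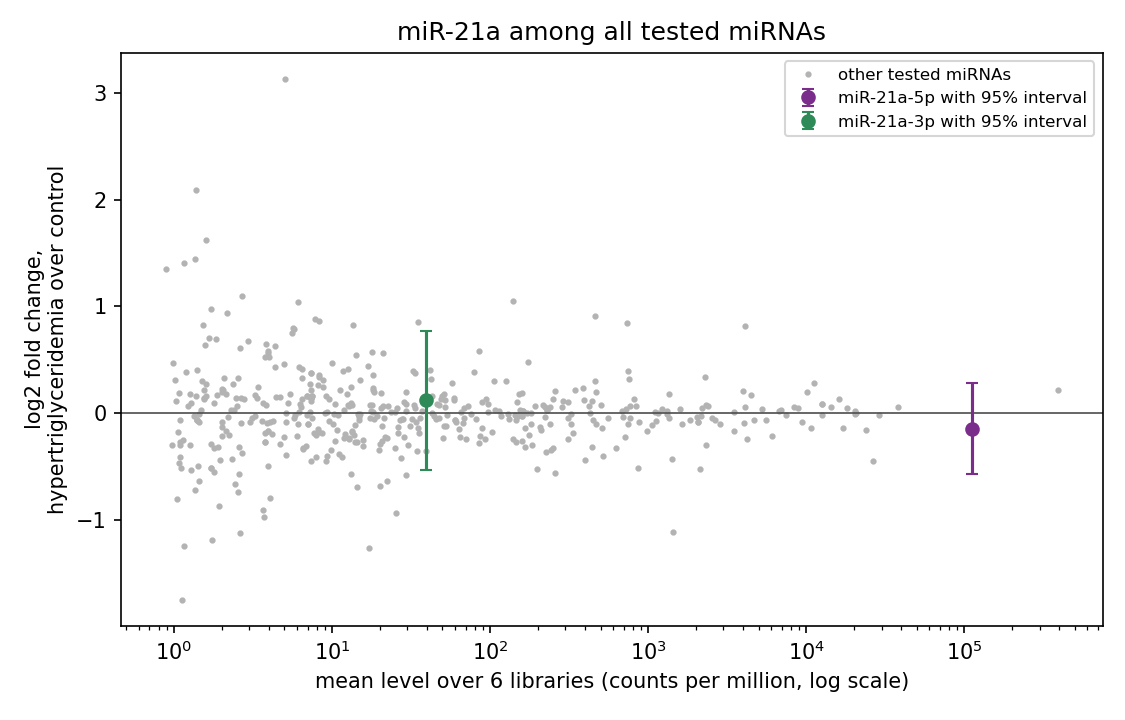
Mean level over the 6 libraries (CPM, log axis) against the log2 fold change of HTG_AP over CON_AP for the 488 tested miRNAs, with the 95% interval drawn for both miR-21a strands. Both intervals cross 0, and miR-21a-5p is the second point from the right.

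The miRNAs known from injury and inflammation made up a list of 27, both miR-21a strands included, of which 26 were tested. In this list 0 passed the threshold in either direction, 14 had fitted values above 0 and 12 below, and the median log2 fold change was 0.01, beside -0.01 over all 488. miR-21a-5p made up 69.0% to 73.3% of the summed level of this list in HTG_AP and 68.5% to 74.0% in CON_AP libraries. After it, the most abundant members were miR-29a-3p, which represses collagens (log2 0.06 ± 0.14, SE), the endothelial miR-126a-3p (0.03 ± 0.14), and miR-23a-3p, miR-24-3p and miR-27a-3p of a shared cluster (-0.21 ± 0.16, 0.06 ± 0.14 and 0.01 ± 0.16). The adjusted p was 0.996 in edgeR for each.

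The groups did not overlap for 2 of the 26, both lower in HTG_AP, a share of the list close to the background, where 39 of the 488 tested miRNAs, or 7.99%, did not overlap in either direction. One was miR-125b-5p, a mesenchymal miRNA, at 1798, 1893 and 1583 CPM in HTG_AP and 2393, 3133 and 2076 CPM in CON_AP libraries (log2 -0.53 ± 0.19, adjusted p = 0.996 in edgeR). The other was miR-222-3p, named after its values were seen, at 228, 220 and 195 CPM against 241, 294 and 282 CPM (log2 -0.35 ± 0.16, adjusted p = 0.996 in edgeR). The myeloid miR-223-3p, known from neutrophils and macrophages, stood at 993, 769 and 948 CPM in HTG_AP and 663, 3510 and 1695 CPM in CON_AP libraries. CON_AP2 was thus the highest of the 6 libraries for miR-223-3p as well as for miR-21a-5p. CON_AP1 was the lowest for both in TMM-scaled levels, but by share of counts and by the authors' deposited TPM the lowest for miR-21a-5p was HTG_AP3.

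**Figure D4:**
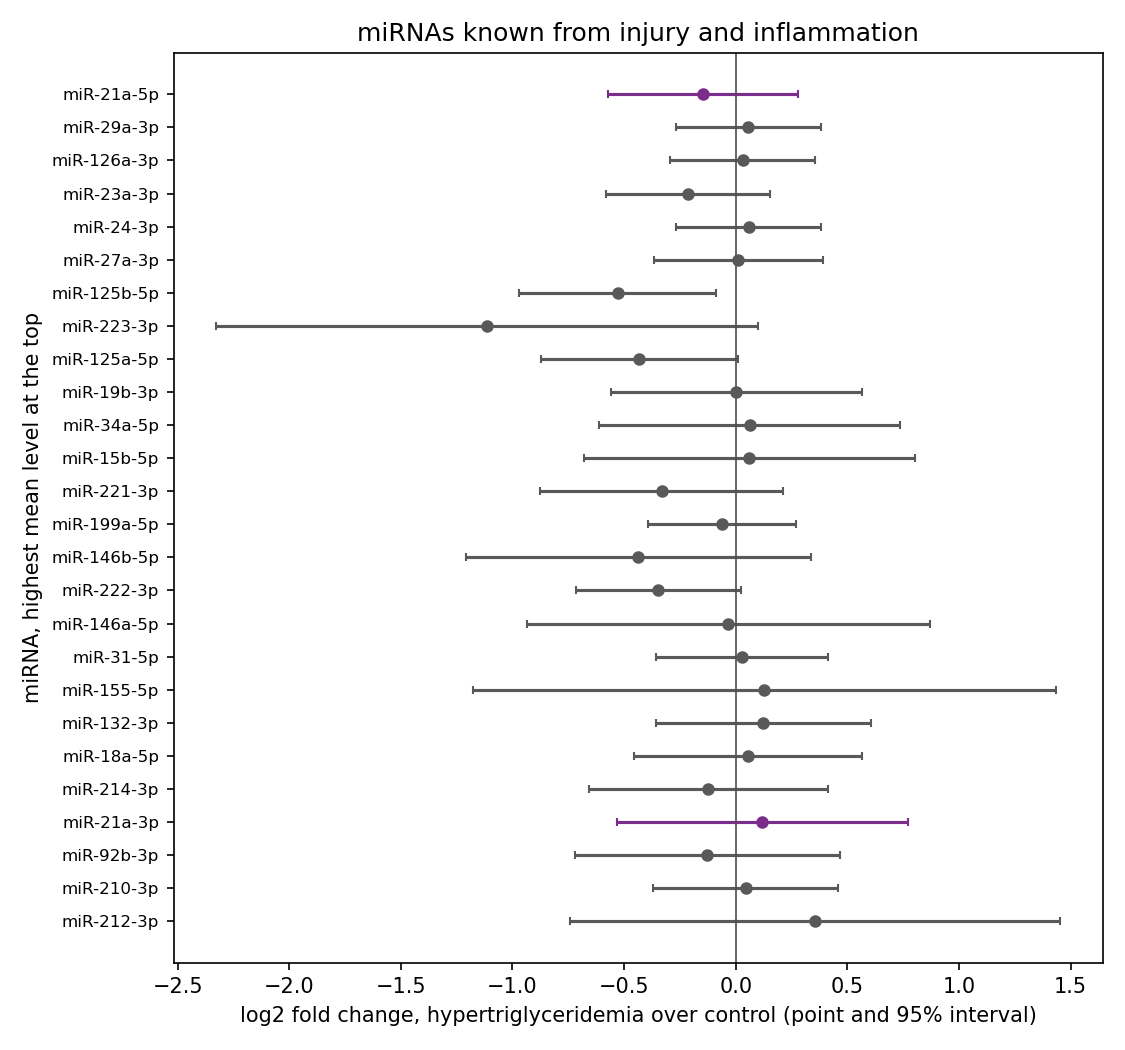
Log2 fold change of HTG_AP over CON_AP, as a point with its 95% interval, for the 26 tested miRNAs of the injury and inflammation list, ordered by mean level with the highest at the top and both miR-21a strands in purple. The interval of miR-125b-5p ends below 0 before adjustment, at -0.09, and those of both miR-21a strands include 0.

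In bulk tissue, a change in the number of cells of a type and a change of the RNA per cell cannot be told apart, so the levels of cell type markers are given beside miR-21a. The summed level of 12 leukocyte miRNAs was 7079, 1523 and 1916 CPM in HTG_AP libraries 1, 2 and 3, and 3950, 5283 and 3234 CPM in CON_AP libraries 1, 2 and 3. HTG_AP1, with the highest leukocyte sum of the 6 libraries, had the lowest miR-21a-5p level of its group, and HTG_AP2, with the lowest sum, had the highest. This is the order of the TMM-scaled levels. By share of counts and by the authors' deposited TPM, HTG_AP1 was the highest of its group in miR-21a-5p. Among the CON_AP libraries, number 2 was highest in both, but its leukocyte sum of 5283 CPM was mostly miR-223-3p, at 3510 CPM. Besides miR-223-3p, the most abundant leukocyte miRNA was miR-142a-5p, which is found across blood cells, at 2204, 170 and 169 CPM in HTG_AP and 1236, 473 and 221 CPM in CON_AP libraries.

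The 8 acinar miRNAs summed to 327802, 544315 and 524995 CPM in HTG_AP libraries 1, 2 and 3, and to 448838, 426039 and 329662 CPM in CON_AP libraries 1, 2 and 3, so HTG_AP1 and CON_AP3 were the lowest of their groups. Of these, miR-217-5p (log2 0.13 ± 0.32, SE) and miR-802-5p (0.28 ± 0.20) were the most abundant after miR-148a-3p, and 0 of 8 passed. All 8 were fitted above 0, beside 239 of the 488 tested miRNAs. The 8 hold both strands of miR-148a, miR-216a and miR-216b, so they are not 8 independent signs. The 3p strand of miR-217, outside the list and named after its value was seen, was at -0.02. The 15 stellate and mesenchymal miRNAs summed to 56938, 43859 and 46450 CPM against 84994, 52476 and 40444 CPM, led by the smooth muscle miRNA miR-143-3p, which held 56164 CPM in CON_AP1. This sum includes both miR-199a-3p and miR-199b-3p, whose counts were identical. Of the 15, 1 was fitted above 0 and 14 below. The 4 endothelial miRNAs, most of them miR-126a-3p reads, summed to 8653 to 8938 CPM in HTG_AP and 8023 to 9655 CPM in CON_AP libraries. The part of these cell types in the level of miR-21a was not tested.

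The remaining marker sums were 38553 to 50365 CPM in HTG_AP and 36689 to 44520 CPM in CON_AP libraries for 11 islet miRNAs, 559 to 1307 CPM and 533 to 1194 CPM for 5 erythroid miRNAs, and 193 to 249 CPM and 191 to 603 CPM for 4 striated muscle miRNAs. The erythroid sum includes both miR-486a-5p and miR-486b-5p, whose counts were identical, so it is inflated by the repeated row. No member of these lists passed in edgeR with all 6 libraries. Of the islet list, miR-129-5p and miR-7b-5p passed without CON_AP1 (adjusted p = 0.0371 in edgeR for both), where 2 of 505 tested miRNAs passed. They and miR-7a-5p passed without both libraries numbered 1 (adjusted p = 0.0168, 0.00441 and 0.00441 in edgeR, in the order miR-129-5p, miR-7b-5p and miR-7a-5p), where 4 of 509 passed. Of these, miR-129-5p was named after its values were seen. With all 6 libraries, 8 of the 11 islet miRNAs were fitted above 0 and 3 below. The most abundant, miR-375-3p, was at a log2 fold change of 0.05 ± 0.16 (SE). Those below 0, named after their values were seen, were miR-184-3p (-0.32), miR-9-5p (-0.52) and miR-9-3p (-0.68). The groups did not overlap for 5 of the 11 islet miRNAs, 4 higher and 1 lower in HTG_AP, beside 7.99% of all tested. The cell type lists were chosen with earlier results of these data known, so this share is not a test of the list.

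The likeness of other miRNAs to miR-21a-5p was measured as the root mean square difference of their log2 levels over the 6 libraries, each centred on its own mean, among the 152 other miRNAs of at least 100 CPM. The closest was let-7e-5p, a growth-restraining let-7 miRNA, at 0.15, followed by miR-31-5p (0.15), known from injured epithelium, the mesenchymal miR-199a-5p (0.16), let-7d-5p (0.16) and miR-30c-5p (0.16), where the median was 0.27. All 5 lay below their own mean in CON_AP1 and above it in CON_AP2, as miR-21a-5p did by -0.23 and 0.36, though they varied less than miR-21a-5p itself. With a span this small, likeness among the closest partly measures a flat profile.

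By the same measure, miR-21a-3p lay at 0.37 from its own partner strand, below the median of 0.42 over 153 miRNAs. Seen from miR-21a-5p, the same 0.37 lay above the median of 0.27 over 152 miRNAs. The 3 miRNAs closest to miR-21a-3p were the epithelial miR-141-3p (0.16), miR-27b-3p (0.20) and miR-22-3p (0.20). They also stood low in CON_AP3, which follows in part from the choice, since CON_AP3 holds the largest deviation of miR-21a-3p. Relative to their own means on the log2 scale, miR-21a-3p stood there at -0.68, miR-141-3p at -0.57, miR-27b-3p at -0.29 and miR-22-3p at -0.55. In the same library miR-21a-5p stood at 0.07.

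**Figure D5:**
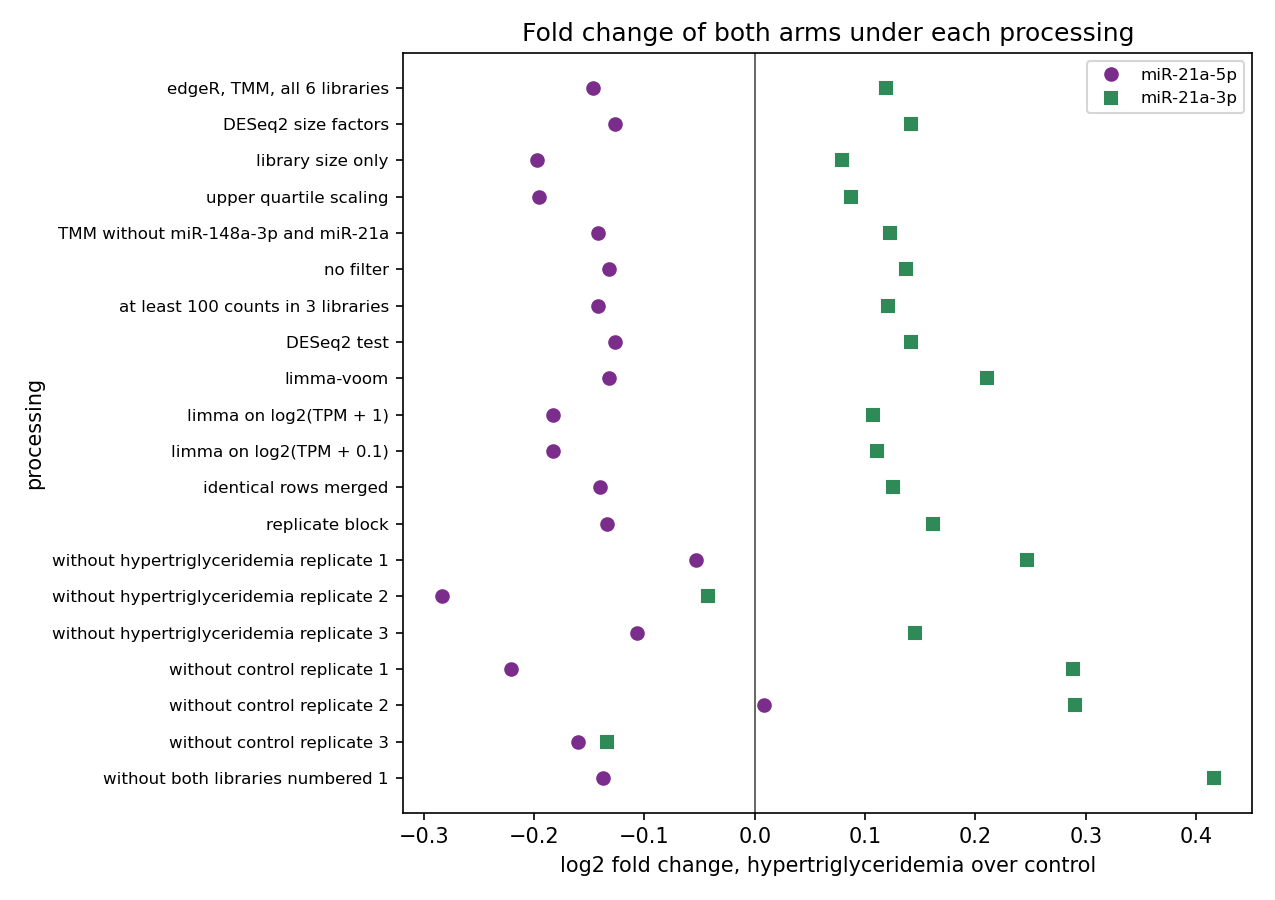
Log2 fold change of HTG_AP over CON_AP for miR-21a-5p (circles) and miR-21a-3p (squares) under the reported processing, at the top, and 19 alternatives. miR-21a-5p lies between -0.28 and 0.0087 and miR-21a-3p between -0.13 and 0.42, and changes of sign occur where a single library is left out.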

How the data were processed

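The deposited table gave whole-number read counts per mature miRNA and a TPM value beside each, per the file headers. The TPM equalled the count of miR-21a-5p over a total that lay 1.70% to 1.95% below the sum of the deposited counts. Per the labels' protocols, Trizol was used for extraction and, for the libraries, a kit that ligates adapters (NEXTflex Small RNA-Seq Kit v3). The submitters' processing notes name the aligner Bowtie 1.1.1 and the build GRCm38. How reads were trimmed, annotated and assigned when they matched several miRNAs is not stated there, and miR-21a shared no identical row with another miRNA.

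Counts were tested with R 4.3.3 and edgeR 4.0.16 (low counts removed by filterByExpr at minima of 10 per library and 15 in total, scaling by TMM, a quasi-likelihood test with 2 sides, Benjamini-Hochberg over 488 miRNAs, threshold 0.05), after the test was checked on simulated counts. Ratios and shares were compared by exact two-sided permutation of the libraries. Alternatives were other scalings and filters, DESeq2 1.42.0, limma 3.58.1 on voom and on log2(TPM + 1 or + 0.1), merging of identical rows, the replicate block, and leaving out libraries. The hairpin was folded with RNAfold 2.7.2. Libraries were grouped by title. The deviations of libraries with the same number from their group means correlated at 0.46, 0.19 and 0.25 over the tested miRNAs for numbers 1, 2 and 3. These numbers were treated as pairing the libraries in the block, an alternative to the unpaired reported fit. No label states a shared source, and numbers 2 and 3 correlated as much across each other (0.21 and 0.21). The deviations of a group sum to 0, so likeness of the libraries numbered 1 alone raises the values among numbers 2 and 3. Those values therefore cannot show that numbers 2 and 3 were paired.

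The miRNAs named are the 2 strands, those of nearest sequence, level or profile, and the most abundant of each list. Others were named after their values were seen or for their identical counts. The members and lists were chosen with earlier results of these data known.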

Additional observations from a re-analysis of the deposited data

How the results depend on the processing

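In edgeR with other scalings or filters, in DESeq2 and in limma, miR-21a-5p stayed below 0 and miR-21a-3p above 0 on the log2 scale, and neither passed the threshold in any of the 19 alternatives, with a smallest adjusted p of 0.775 and 0.592. Over the fits that left out 1 library each, miR-21a-5p ranged from -0.28 to 0.0087, miR-21a-3p from -0.13 to 0.29, the log2 strand ratio difference from -0.57 to 0.011, the log2 difference of the miR-21a-5p to miR-148a-3p ratio from -0.59 to -0.16, the share difference from -2.90 to -0.611 percentage points, and the number of called miRNAs from 0 to 2. Signs changed in 4 of these fits: -0.042 for miR-21a-3p without HTG_AP2, -0.13 without CON_AP3, 0.0087 for miR-21a-5p without CON_AP2, and 0.011 for the strand ratio without CON_AP3. The count of called miRNAs was 1 of 1077 with no filter (miR-135b-5p), 2 of 505 without CON_AP1 (miR-129-5p and miR-7b-5p) and 4 of 509 without both libraries numbered 1 (these with miR-7a-5p and miR-335-3p). Of these, miR-135b-5p, miR-129-5p and miR-335-3p were named after their values were seen, and the cause was not tested. With the replicate block, miR-21a-5p was at -0.13 and miR-21a-3p at 0.16, the paired strand ratio difference of -0.29 had an exact sign-flip p of 0.75, and no call changed. Counting error is larger for miR-21a-3p, whose 275 counts in HTG_AP1, the shallowest library, have a 95% Poisson interval of 243 to 309. Exact tests of 3 against 3 libraries could not pass 0.05.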
